A study of Oryza sativa with 6 samples.

Results

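A set of 4 aquaporin genes of rice was described across wild type and OsCGA1-overexpressing leaves: OsPIP2;6, OsPIP1;3, OsPIP1;1 and Lsi1. They were the 4 genes that carry these names in the rice gene annotation, out of 17905 genes with at least 1 probe set of their own on the array, and each was read by a single probe set. They were chosen by their signal differences between the genotypes in earlier results of the same 6 arrays, in which the first 2 were higher and the last 2 lower in overexpression. Those differences are therefore given as a description, with no test. Leaves came from 4-week-old plants, 3 biological replicates of wild type and 3 of transgenic rice overexpressing OsCGA1, a GATA-type transcription factor. The growth chambers gave both genotypes 16 h days at 28 °C and 8 h nights at 23 °C. The cultivar, the promoter of the transgene and the number of transgenic lines are not given in the sources used here, and no level of OsCGA1 is given, so nothing here checks the genotype from the transgene.

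Aquaporins are channel proteins that let water, and in some cases small uncharged solutes, cross a membrane. The plasma membrane intrinsic proteins (PIPs) fall into the PIP1 and PIP2 groups. PIP2 proteins commonly give high water permeability by themselves, whereas many PIP1 proteins need a PIP2 partner to reach the plasma membrane, as shown in maize. Tonoplast intrinsic proteins (TIPs) sit mainly in the vacuolar membrane, and nodulin 26-like intrinsic proteins (NIPs) carry solutes such as silicic acid. The small basic intrinsic proteins (SIPs) are a further, little studied group. In leaves, PIPs and TIPs serve the movement of water between the xylem and the mesophyll and its exchange with the vacuole.

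OsPIP2;6 (LOC4335226) encodes a PIP2 water channel. Its MAS5 signal, the linear probe set intensity deposited by the authors, was 2.4, 22.8 and 1.6 on wild type arrays 1, 2 and 3, and 1312.4, 947.7 and 918.3 on overexpression arrays 1, 2 and 3. The groups were far apart, and the lowest overexpression array stood 40.3 times above the highest wild type array. The means were 8.93 ± 12.02 (SD, n = 3) for wild type and 1059 ± 220 (SD, n = 3) for overexpression.

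On the log2(signal + 3) scale the difference, overexpression minus wild type, was 6.93 ± 0.58, where the value after ± is the standard error from limma (n = 3 arrays per genotype) here and for all log2 differences below. Only wild type array 2 reached 16.8, the mean signal that a probe set needed to be tested, so the gene entered the tested set through its overexpression arrays and had to differ. The other 3 genes were above that minimum on all 6 arrays. The wild type signals were within the range where the added 3 matters, and the difference was 5.80 with 12 added and 7.46 with 1 added. Leaving out wild type array 2, the single wild type array above the minimum, gave 7.72, and leaving out any other array gave 6.47 to 7.02.

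OsPIP1;3 (LOC4331194), also known as RWC3, encodes a PIP1 water channel. Its signal was 717.1, 803.9 and 766.9 on the wild type arrays and 1569.5, 1317.3 and 1837.1 on the overexpression arrays. Every overexpression array lay above every wild type array, by 1.64 times at the nearest pair of arrays and 2.56 times at the farthest. Means were 762.6 ± 43.6 (SD, n = 3) and 1575 ± 260 (SD, n = 3), a log2 difference of 1.03 ± 0.13. That difference ranked 1309th from the top among the 28456 tested probe sets. It was 0.91 without overexpression array 3, the highest, and 1.15 without overexpression array 2, the lowest, and it barely moved with the pseudocount (1.02 with 12 added). The overexpression arrays were also more spread out, with a coefficient of variation of 16.5% against 5.71% in wild type.

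OsPIP1;1 (LOC4330248), also known as RWC1 or PIP1A, encodes a protein of the same PIP1 group and lay on the other side. Its signal was 4872.7, 4996.6 and 4583.3 on the wild type arrays and 2939.7, 3513.1 and 3291.3 on the overexpression arrays. The groups did not overlap, and the nearest pair of arrays, wild type 3 and overexpression 2, differed by 1.30 times. Means were 4818 ± 212 (SD, n = 3) and 3248 ± 289 (SD, n = 3), so that overexpression held 67.4% of the wild type signal, with a log2 difference of -0.57 ± 0.10. With quantile normalization, which forces the same distribution of signals on every array, the difference was -0.41. Without it the difference ranked 3996th from the bottom among the tested probe sets, and ran from -0.63 to -0.50 when each array was left out in turn. The coefficient of variation was 4.40% in wild type and 8.90% in overexpression.

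Lsi1 (LOC4330713, NIP2-1) encodes the channel through which rice roots take up silicic acid. Its signal was 370.6, 418.9 and 458.2 on the wild type arrays and 123.1, 194 and 160.5 on the overexpression arrays. Wild type was higher on every array, by 1.91 times at the nearest pair and 3.72 times at the farthest. Means were 415.9 ± 43.9 (SD, n = 3) and 159.2 ± 35.5 (SD, n = 3), which left 38.3% of the wild type signal and a log2 difference of -1.39 ± 0.17. That was 381st from the bottom among the tested probe sets, and it ran from -1.54 without overexpression array 2 to -1.22 without overexpression array 1. The coefficient of variation was 10.5% in wild type and 22.3% in overexpression. Less transcript per cell and fewer cells that express the gene cannot be told apart in whole leaves.

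**Figure D1:**
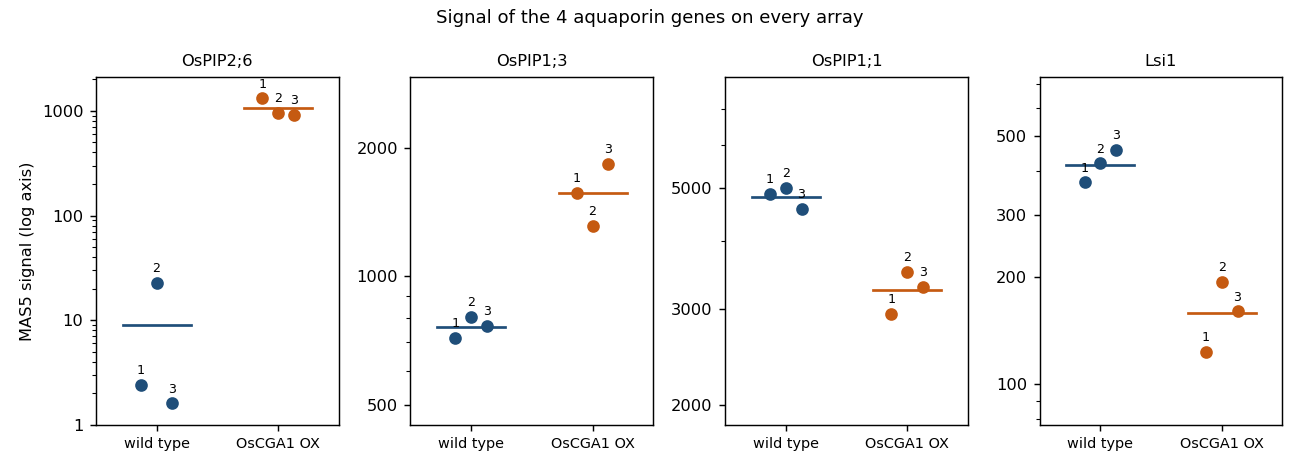
MAS5 signal of OsPIP2;6, OsPIP1;3, OsPIP1;1 and Lsi1 on a log axis, with 1 point per array, its replicate number beside it and a line at the mean of each genotype (n = 3 arrays, own axis per panel). The genotypes do not overlap in any panel, and wild type array 2 (22.8) stands above the other two wild type arrays for OsPIP2;6.

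In all 4 genes the 3 wild type arrays were separate from the 3 overexpression arrays, which the choice of the genes made likely and which also held for 38.7% of all tested probe sets (16.7% with overexpression higher and 22% with it lower). By an adjusted p under 0.05 from limma, 16.1% of tested probe sets passed, 8.65% higher and 7.44% lower, which says nothing further about genes chosen on that contrast. The spread within a genotype also differed among the genes, as a description with no test. On the log2 scale the pooled SD was 0.10 for OsPIP1;1, 0.18 for OsPIP1;3, 0.25 for Lsi1 and 0.99 for OsPIP2;6, against a median of 0.23 over all tested probe sets. OsPIP1;1 thus varied more than only 11.03% of tested probe sets, while OsPIP2;6 varied more than 98.0% of them. Almost all of that spread came from wild type, where the log2 SD was 1.37 against 0.28 in overexpression. The wild type signals of OsPIP2;6 (2.4, 22.8 and 1.6) were too dim to be told from background here, so their spread describes dim signals.

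Overexpression array 1 was at an extreme of its group for 3 of the 4 genes, highest for OsPIP2;6 and lowest for OsPIP1;1 and Lsi1, and overexpression array 2 for 3 as well, lowest for OsPIP1;3 and highest for OsPIP1;1 and Lsi1. With 3 arrays, 2 are always extremes. Array 1 had the highest ratio of 3' to 5' signal for both actin control pairs bright enough to be read, 5.76 and 3.40, a measure that rises as RNA degrades. For 1 of these pairs every overexpression array (2.16 to 3.40) was above every wild type array (1.53 to 2.01). The other pair overlapped (2.98 to 4.53 in wild type, 3.88 to 5.76 in overexpression), and a GAPDH pair was at 4.25 to 5.18 in wild type and 3.36 to 4.65 in overexpression. The part of RNA quality in the aquaporin differences was not tested. Leaving out overexpression array 1 gave 6.76 for OsPIP2;6, 1.03 for OsPIP1;3, -0.50 for OsPIP1;1 and -1.22 for Lsi1. That does not separate RNA quality from genotype. In the actin pair without overlap, overexpression arrays 2 (2.16) and 3 (2.22) were still above every wild type array.

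**Figure D2:**
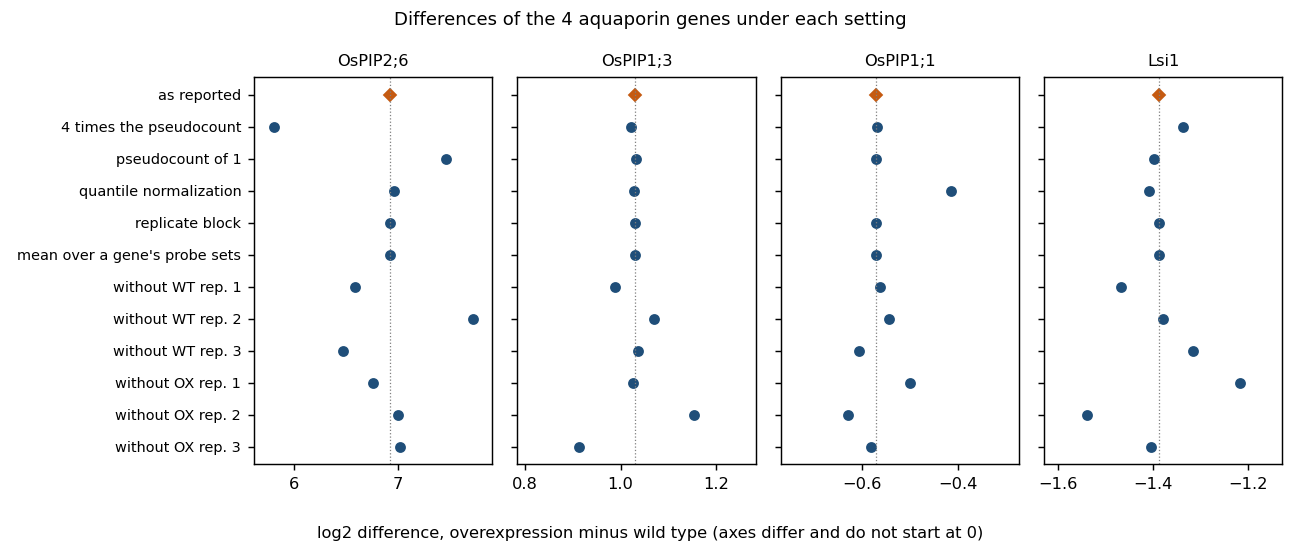
Log2 difference of each of the 4 genes, overexpression minus wild type, as reported (diamond) and under each other setting (circles), 1 row per setting, and the horizontal axes differ between panels and do not start at 0. OsPIP2;6 ranges from 5.80 with 12 added to 7.72 without wild type array 2, and OsPIP1;1 moves most under quantile normalization, to -0.41.

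The rest of the family was read beside the 4. The other family members are given by the hyphenated names that the annotation lists beside the usual ones (PIP2-1 for OsPIP2;1). The annotation held 29 genes with a PIP, TIP, NIP or SIP name, of which 25 had a probe set of their own and 21 passed the minimum on mean signal, the 4 genes above and 17 others. The 4 family members below the minimum (NIP3-1, NIP4-1, PIP2-8 and TIP2-1) read at most 18.1 on any array. Of the 17, 6 fell and 1 rose at an adjusted p under 0.05 (limma, Benjamini-Hochberg over all tested probe sets), and 10 did not pass. Without wild type array 2 the falls numbered 2, and without wild type array 3 they numbered 3. Among all 14616 tested genes, 8% fell and 11.1% rose by the same test. The median log2 difference of the 17 was -0.50, against -0.02 over all tested genes. This family had already been seen to lean lower in these arrays, so its count is no independent evidence of a direction.

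Falls were found among PIP2 and TIP genes. PIP2-1 (LOC4343122), a PIP2 water channel, had signals of 3132.6, 3390.1 and 3340.1 on the wild type arrays and 2382.6, 1941.4 and 2249.1 on the overexpression arrays. Every overexpression array was lower, and the log2 difference was -0.59 ± 0.10 with an adjusted p of 0.00922 from limma. These values are from the brightest of its probe sets. The mean over its probe sets was at -0.03 and did not pass. PIP2-4 fell by 0.50 ± 0.13 and PIP2-7 by 0.40 ± 0.11, with adjusted p-values of 0.0379 and 0.0388 from limma. PIP2-2 was the only riser among the 17, at 0.33 ± 0.09 with an adjusted p of 0.0472 from limma. That call did not hold in 9 of 16 alternatives, each of the 6 that left out an array among them, and PIP2-4 and PIP2-7 did not pass in 8 and 9 of 16.

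Of the TIP genes, which act at the vacuolar membrane, 3 fell. TIP1-1 had signals of 7123.8, 8003.5 and 7497.9 on the wild type arrays and 5377.2, 5322.9 and 5323.3 on the overexpression arrays, a log2 difference of -0.50 ± 0.09 with an adjusted p of 0.00883 from limma. In this probe set, the brightest of the gene, the overexpression arrays were nearly level, and the lowest wild type array stood well above them. A dimmer probe set was not level, at 4179.4, 2849.3 and 3528.3 on the overexpression arrays. Its log2 difference was -0.69 ± 0.15 (adjusted p 0.0186 from limma). TIP1-2 fell by 0.61 ± 0.12 and TIP2-2 by 0.58 ± 0.13, with adjusted p-values of 0.0157 and 0.0198 from limma, and TIP2-2 did not pass in 6 of 16 alternatives. All 7 tested TIP genes had differences below 0, and the other 4 ranged from -1.66 to -0.15 and did not pass. The lowest of them, TIP4-2, had signals of 59.4, 58.5 and 60.8 on the wild type arrays and 27.9, 29.5 and 4.8 on the overexpression arrays, where the third array lay far under the others. It was singled out after its values were seen.

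By the brightest probe set of each gene, bright leaf genes lay below 0 as well. All 9 leaf marker genes, among them light-harvesting and rubisco genes, were between -0.39 and -0.29. Of them 1, GLN2, fell, where 8% of all tested genes did. Both the narrow range and the single fall depend on that choice of probe set. Dimmer sets of RBCS ran from -0.36 to 0.09. A dimmer set each of FBPase (-0.44) and rca (-0.38) passed, with adjusted p-values of 0.0219 and 0.0425 from limma. The other dimmer leaf sets did not pass. Averaging the sets of each gene gave -0.57 to -0.14, with 3 genes lower. Quantile normalization brought the range of the brightest sets to -0.38 to 0.002 with none passing. It left 3 of the 17 aquaporins lower (PIP2-1 at -0.49, PIP2-4 at -0.54 and TIP1-2 at -0.50) with the median of the 17 at -0.22. TIP1-1 was then at -0.22, TIP2-2 at -0.35 and PIP2-7 at -0.15, and none of these passed. Of the 4 genes, OsPIP2;6 (6.96), OsPIP1;3 (1.03) and Lsi1 (-1.41) were nearly the same with that normalization.

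**Figure D3:**
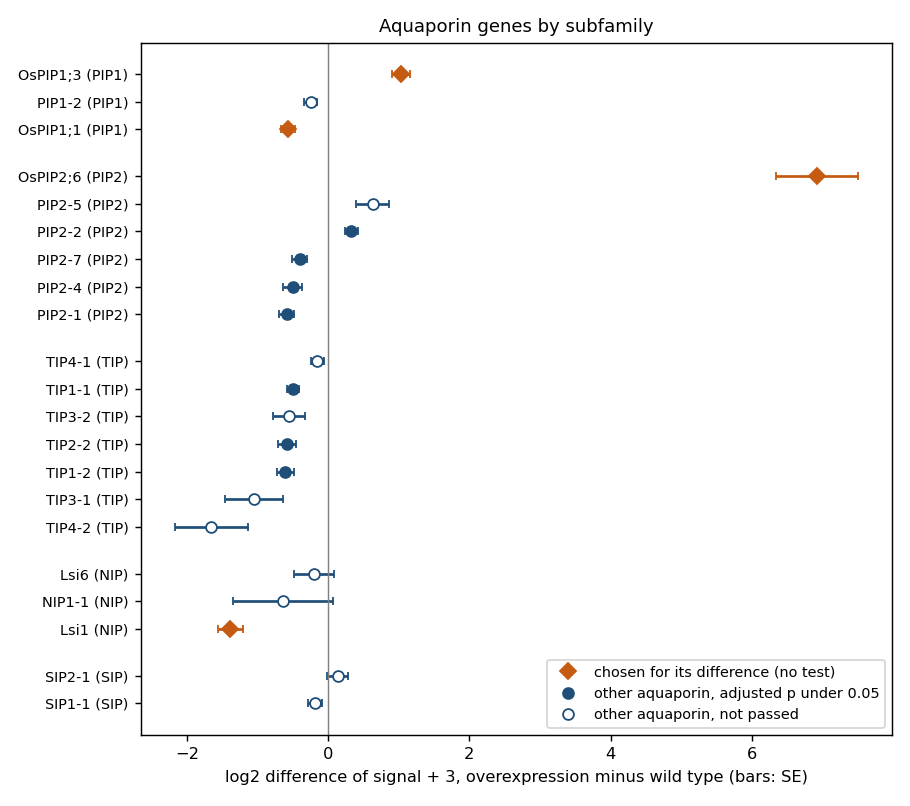
Log2 difference of signal + 3, overexpression minus wild type, for the 21 tested aquaporin genes by subfamily, with standard errors as bars, where diamonds are the 4 genes chosen for their difference, filled circles other aquaporins with an adjusted p under 0.05 and open circles those that did not pass. All 7 TIP genes lie below 0, though TIP3-1 was tested only through its wild type arrays. OsPIP2;6 at 6.93 lies far from the rest of the family.

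Within the PIP1 group, PIP1-2 (LOC9270874), the remaining member, had a log2 difference of -0.25 ± 0.10 that did not pass (adjusted p 0.115 from limma), with signals of 5412.9 to 5646.2 in wild type and 4376 to 5139.8 in overexpression. It lay between its relatives OsPIP1;1 at -0.57 and OsPIP1;3 at 1.03, and was at -0.02 with quantile normalization. In the NIP group Lsi6 (NIP2-2), the relative of Lsi1 that is known for silicic acid transport in the shoot, was at -0.20 ± 0.28 with an adjusted p of 0.648 from limma. Its arrays overlapped, at 418.8, 538.3 and 609.9 for wild type and 331.2, 714.5 and 380.3 for overexpression. The difference between Lsi1 and Lsi6 was not tested. NIP1-1 overlapped as well, and its overexpression arrays ran from 34.8 to 376.5. Neither SIP gene passed. These genes were named to complete the PIP1, NIP and SIP groups, after their values were seen.

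Some PIP2 genes were read by several probe sets that did not give the same size. PIP2-2 had a second, dimmer probe set with signals of 38.8, 82.2 and 32 on the wild type arrays and 230.3, 182.6 and 195.2 on the overexpression arrays, a rise of 2.04 ± 0.31 (adjusted p 0.00531 from limma) against 0.33 for the brighter set. Both sets were higher on all overexpression arrays. PIP2-1 had 3 probe sets, 2 of which fell, with log2 differences of -0.59 and -0.38. The third had signals of 174.6, 185.2 and 65.2 on the wild type arrays and 174.2, 310.5 and 250.5 on the overexpression arrays, which overlapped, and was at 0.88 ± 0.39 (adjusted p 0.159 from limma). The mean over the 3 probe sets was at -0.03 and did not pass, so the fall of PIP2-1 rests on the brighter sets.

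PIP2-1, PIP2-4 and PIP2-5 lie next to each other in the annotation order, with PIP2-5 in the middle and 0 other protein-coding genes between neighbours, and a probe set assigned to both PIP2-1 and PIP2-5 was not used to name either. PIP2-5, whose own probe set was dim (17.1 to 22.9 in wild type and 30.7 to 35.8 in overexpression), was at 0.63 ± 0.23 and did not pass (adjusted p 0.101 from limma). Signals of such close copies are uncertain, since a probe set can bind more than 1 of them. Each of the 4 chosen genes had only 1 probe set, so none has a second reading here.

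**Figure D4:**
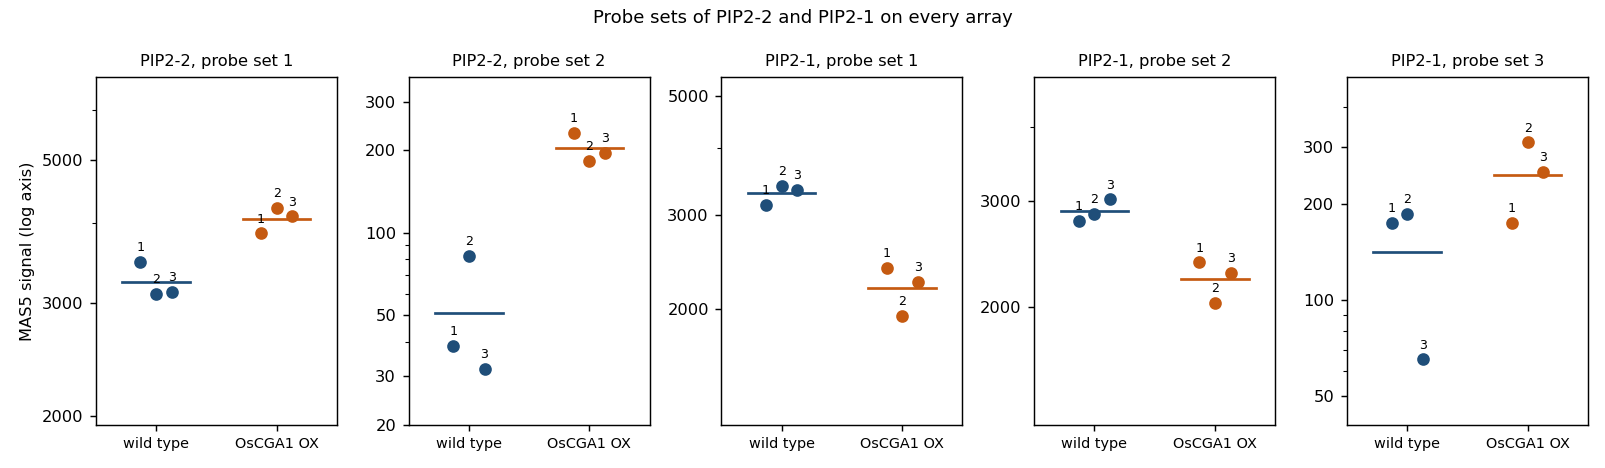
MAS5 signal on a log axis for the 2 probe sets of PIP2-2 and the 3 of PIP2-1, ordered from bright to dim within a gene, with 1 point per array, its replicate number and a line at the mean of each genotype (n = 3 arrays, own axis per panel). Both PIP2-2 sets are higher in overexpression, while the dimmest PIP2-1 set overlaps and lies opposite to the brighter ones.

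Lsi1 is known mainly as a root gene, so other root transporter genes were read beside it. Of 6 such genes with a probe set, 5 were tested, and 2 fell and none rose, against 8% and 11.1% of all tested genes. YSL15, which takes up iron bound to phytosiderophores, had signals of 95, 73.2 and 71.4 on the wild type arrays and 17, 18.8 and 40.4 on the overexpression arrays, a log2 difference of -1.63 ± 0.31 (adjusted p 0.0129 from limma). The iron transporter gene IRT1 fell by 0.80 ± 0.23 (adjusted p 0.0491 from limma), and did not pass in 10 of 16 alternatives. IRT2, NRAMP5 and HKT1;5 were at -1.34 ± 0.40, -0.11 ± 0.31 and -0.04 ± 0.29 and did not pass. All 5 differences were below 0, but those of NRAMP5 and HKT1;5 were smaller than their standard errors. With quantile normalization NRAMP5 was at 0.05 and HKT1;5 at 0.11. The count of falls was 0 without wild type array 1, and 1 without wild type array 2, overexpression array 2 or overexpression array 3.

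Lsi2, the silicon exporter that works with Lsi1 in roots, was near 0 on all arrays (0.6 to 1.6). The summed signal of the 6 root genes was 240.7 to 362.1 in wild type and 133.4 to 172.7 in overexpression, while that of the 9 leaf markers was 55973 to 64336 and 44443 to 51010. Both sums were lower in overexpression, and since levels of different probe sets cannot be compared, the sums are read only between genotypes. The part of the root genes in the Lsi1 difference was not tested.

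A list of genes linked to water deficit or related stresses, called water deficit genes here, was read beside the water channels. Of 11 tested, 3 rose and 1 fell, against 11.1% and 8% of all tested genes, and the median of their log2 differences was 0.41. The transcription factor gene DREB1B rose by 3.13 ± 0.67, the late embryogenesis gene LEA3 (LEA19) by 3.15 ± 0.88 and the stress gene SALT by 1.56 ± 0.38, with adjusted p-values of 0.0191, 0.046 and 0.0306 from limma. The wild type means of DREB1B (15.7), LEA3 (16.2) and DREB1A (15.5) were under the 16.8 minimum, and DREB1A did not pass. These genes entered the tested set through their overexpression arrays. The calls of DREB1B and LEA3, the count of rises and the median of 0.41 therefore support nothing further. EM, another late embryogenesis gene, fell by 3.07 ± 0.60 (adjusted p 0.0138 from limma). Apart from DREB1B and LEA3, SALT was the only gene of the list that rose and EM the only one that fell. Without wild type array 1 or 2 none of the genes of the list passed. Without wild type array 3 or overexpression array 3, 1 of them rose. LEA3 and SALT did not pass in 8 and 9 of 16 alternatives.

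**Figure D5:**
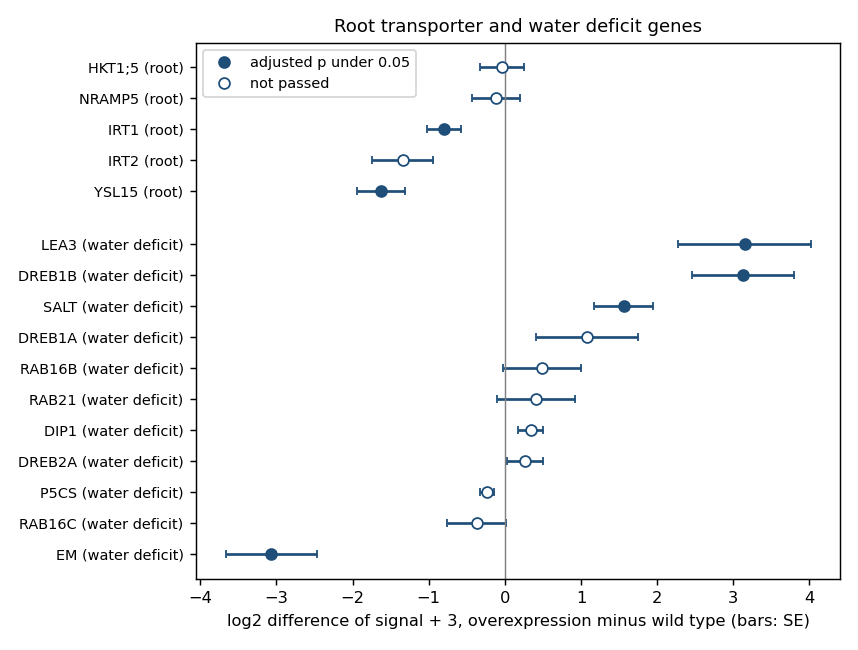
Log2 difference of signal + 3, overexpression minus wild type, for the 5 tested root transporter genes and the 11 tested water deficit genes, with standard errors as bars, where filled circles had an adjusted p under 0.05 and open circles did not pass. All root genes lie at or below 0 (-1.63 to -0.04), and the water deficit genes spread from -3.07 for EM to 3.15 for LEA3.

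The genes whose profile over the 6 arrays was most like that of each aquaporin were found as the smallest root mean square difference of log2(signal + 3), each profile centred on its own mean. Among the 69 tested genes with a name as their symbol, SPO11-3 (0.10), CWZF7 (0.11) and LFNR1 (0.11) were nearest to OsPIP1;1, and LFNR1 (0.37), CEBIP (0.38) and RLK10 (0.41) to Lsi1. PP2C68 (0.22), FEN1A (0.31) and RPL7A-1 (0.33) were nearest to OsPIP1;3. For OsPIP2;6 the nearest were LEA19 (2.14), ASA2 (2.97) and AT9 (3.22), so none of the 69 was close to it. Over all 14612 other tested genes, known by ID alone in most cases, the nearest to OsPIP2;6 was LOC4344104 at 0.69, with mean signals of 11.6 on the wild type arrays and 730.2 on the overexpression arrays. The nearest to OsPIP1;1 in that wider set was LOC4331441 at 0.02. These distances are descriptions over 6 arrays that share the genotype contrast.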

How the data were processed

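The authors deposited MAS5 signals, which are linear intensities of probe sets, per the submitters' processing notes, from cRNA of 5 µg total RNA, per the labels' protocols. After trimming 2% at each end every array had a mean of 100.02, so no further scaling was done. Without detection calls, which were not used here, dim probe sets could not be told from background. Median signals were 14.7 to 18.7 per array, and the number of arrays limits the precision. Control probe sets (187 of 57381) were left out. Genes were named from probe sets with 1 gene symbol (22436), all matched by Entrez ID to the RefSeq gene table (assembly ASM3414082v1), 95 had several symbols and 34663 other probe sets none.

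Signals were analysed as log2(signal + 3), and folds on that scale understate changes of low signals. Probe sets with a mean of at least 16.8, the median of all values, were tested (28456) with limma 3.58.1 in R 4.3.3 (genotype alone, variance trend, two-sided, Benjamini-Hochberg, threshold 0.05). The fit was tested on simulated data. It called 4578 probe sets (16.1%), 2461 higher and 2117 lower. Lists used 1 probe set per gene, the brightest tested. Named were the 4 genes, other aquaporins that passed, up to 4 passing genes of each further list and the 3 nearest profiles per gene. Genes outside this rule were named after their values were seen. They were PIP1-2, PIP2-5, TIP3-1, TIP4-2, Lsi6, NIP1-1, DREB1A, the untested aquaporins and the root and leaf markers that did not pass. Further ones were the other water deficit genes in a plot and the nearest profiles over all genes. The members, lists and rules were chosen with earlier results of these data known. The list names Lsi3, RCC3, RAB16A, LEA14A, ABI5, NCED5, OSCA1.1 and SNAC1 matched no gene name here. Alternatives were other pseudocounts, filters, normalization, variance models, probe set averaging, a looser threshold, a replicate block and leaving out each array.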

Additional observations from a re-analysis of the deposited data

How the results depend on the processing

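Each of the 4 genes kept its direction in all alternatives run. Their groups did not overlap, so another pseudocount or leaving out an array could not have changed the direction. OsPIP1;1 was at -0.41 with quantile normalization and OsPIP2;6 at 5.80 with 12 added. Leaving out each array gave 6.47 to 7.72 for OsPIP2;6, 0.91 to 1.15 for OsPIP1;3, -0.63 to -0.50 for OsPIP1;1 and -1.54 to -1.22 for Lsi1. Over all probe sets, 2461 passed higher and 2117 lower, against 3708 and 4237 with array weights. Lower ones numbered 1362 with no filter and 3813 at an adjusted p under 0.10. Leaving out an array gave 1274 (without overexpression replicate 3) to 2631 higher and 843 (without wild type replicate 2) to 2902 (without overexpression replicate 2) lower. Among the other aquaporins the 1 riser was lost (0) with the replicate block, with no filter and without any 1 array (0 to 0), and without a variance trend the 1 riser was PIP2-5 in place of PIP2-2. The 6 that fell became 3 with quantile normalization, with no filter and without a variance trend, and 2 (without wild type replicate 2) to 5 on leaving out an array. Of the root genes, the 2 that fell became 1 with quantile normalization, no filter and no variance trend, and 0 (without wild type replicate 1) to 2 without an array. Root genes that rose stayed at 0. Of the water deficit genes, the 3 that rose became 1 with no filter and no variance trend, and 0 (without wild type replicate 1 or 2) to 2 without an array, and the 1 that fell became 0 to 1. The cause of these shifts was not tested, beyond fewer arrays in the fit.

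Replicate numbers did not pair the samples: deviations of same-numbered arrays correlated at 0.10, -0.01 and -0.06. With the replicate block 5 other aquaporins fell and 0 rose. The lack of detection calls limits the reading of dim genes such as OsPIP2;6 in wild type.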
